A study of Mus musculus with 8 samples.

Results

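The 40 genes described here are genes of cancer-associated fibroblasts, chosen by name from a table of 29968 mouse genes. They cover genes of contractile fibroblasts (myofibroblasts), of inflammatory fibroblasts and of the universal fibroblasts found in many healthy tissues, with collagens left out. All 40 were in the table and all 40 were among the 16610 genes with enough counts to be tested. They were grouped by role into 5 contractile genes, 5 genes of surface proteins, 9 genes of the matrix laid down by activated fibroblasts, 6 genes of proteoglycans and hyaluronan synthases, 7 genes of microfibrils and collagen cross-linking, and 8 genes of universal and inflammatory fibroblasts or of growth factors.

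Fibroblasts in a pancreatic tumor are not of one kind. Myofibroblasts build actin stress fibers and deposit a stiff, cross-linked matrix under the influence of TGF-β, and inflammatory fibroblasts release cytokines and carry high levels of PDGF receptor α. C3, the central component of the complement cascade, is itself produced by some fibroblasts as well as by the liver and by macrophages.

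RNA was sequenced from whole pancreatic tumors of 8 male mice, 4 C57BL/6J (WT) and 4 lacking C3 (C3-/-), all 12 weeks of age. Every mouse carried the same implant, 250000 KPC FC1245 cells in 50 μL of PBS placed in the pancreas, with tumors taken at an endpoint of day 14. FC1245 is 1 mouse pancreatic cancer line, and the deletion lay in the host, so any C3 made by the cancer cells was present in both groups, while host fibroblasts differed in genotype. The deposited counts summed to between 13.3 M and 23.4 M per tumor, and the 40 genes took up between 1.07% and 1.45% of each total. No sort was made, so that in these data fewer fibroblasts and less RNA per fibroblast cannot be told apart. Nor can RNA of the implanted cancer cells or of other cells be told apart from that of fibroblasts. Levels of 1 gene across tumors are given as CPM (counts per M, on the TMM-normalized total of the tumor), listed for tumors 1 to 4 of a genotype in that order, and levels of different genes are compared only as the authors' FPKM, which also divides by gene length. Log2 fold changes are C3-/- over WT, from edgeR's quasi-likelihood test across all 16610 genes. The labels number 4 tumors a genotype without saying more about the mice they came from, and the p-values measure the spread between these tumors, which may in part be technical.

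C3 itself, the deleted gene, averaged 296 ± 100.1 CPM (SD over 4 tumors) in WT hosts and 111 ± 15.7 CPM (SD over 4 tumors) in C3-/- hosts. The groups did not overlap. By edgeR the log2 difference was -1.42 (SE 0.23, adjusted p = 0.933), and DESeq2 gave an adjusted p of 1.28e-05.

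None of the 40 fibroblast genes passed the test between genotypes. In edgeR 0 of 40 had an adjusted p below 0.05, against 0% of all genes tested, and the smallest adjusted p among them was 0.960. DESeq2 on the same counts also called 0 of 40, against 0.0799% of the genes it tested. At an unadjusted p below 0.05, edgeR gave 2 of 40 genes lower in C3-/- tumors (5%), the lysyl oxidase gene Loxl2 and the gelsolin gene Gsn, against 2.07% of all genes, and 0 of 40 higher, against 3.03%. The count of genes lower at that level moved with single tumors. It was 1 without WT tumor 2, WT tumor 4 or C3-/- tumor 2 (against 1.99%, 1.6% and 2.04% of all genes), 3 without WT tumor 1 or C3-/- tumor 1 (against 2.19% and 5.57%), and 5 of 40 without C3-/- tumor 4 (against 1.9%). With CPM, 0 of 40 genes had WT and C3-/- values that did not overlap, against 1.45% of all genes lower and 2.28% higher in C3-/- tumors.

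The fitted log2 fold change was below 0 for 32 of the 40 genes (80%), against 50% of all genes tested. Its median was -0.16 over the 40 genes and -5.84e-05 over all genes tested. Single values ran from -0.61 for Clec3b to 0.41 for Has1. The genes are not independent of each other, and the split moved with single tumors. It was 25 of 40 lower with a median of -0.05 without C3-/- tumor 2, 26 of 40 with a median of -0.07 without WT tumor 4, and 36 of 40 with a median of -0.30 without C3-/- tumor 4. The median was -0.24 without WT tumor 1 and -0.24 without C3-/- tumor 1. The 95% confidence interval stayed within 1 log2 unit on either side of 0 for 30 of the 40 genes, so that a 2-fold difference lay outside the interval for these 30 and inside it for the other 10.

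**Figure D1:**
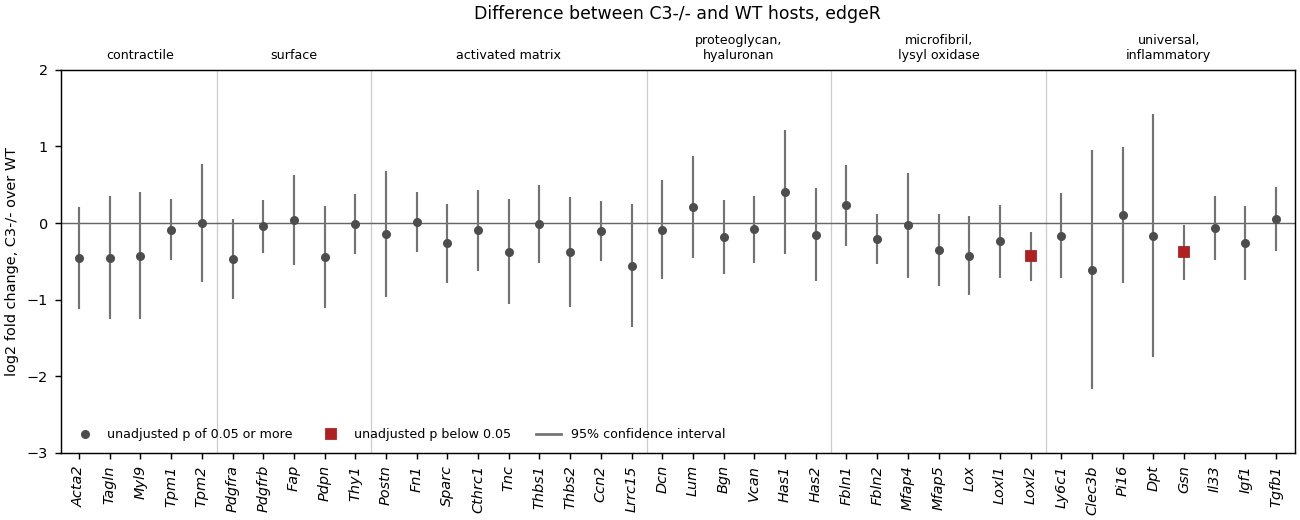
Log2 fold change of each of the 40 fibroblast genes between C3-/- and WT hosts (vertical axis, 4 tumors a genotype, edgeR), grouped by role, with lines for the 95% confidence interval. Most points lie below 0, but 38 of 40 intervals cross it, and only Loxl2 and Gsn (red squares) have an unadjusted p below 0.05.

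By FPKM the 40 genes spanned a wide range. Sparc (428), Ccn2 (275), Fn1 (261), Fbln2 (182), Bgn (106) and Gsn (102) had mean FPKM values over 100, 22 genes lay between 10 and 100, 10 between 1 and 10, and Tagln (0.892) and Has1 (0.472) were below 1. Most of them rested on many counts, with over 100 in every tumor for 35 of 40 genes. The lowest single count was 3, for Clec3b in WT tumor 3.

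**Figure D2:**
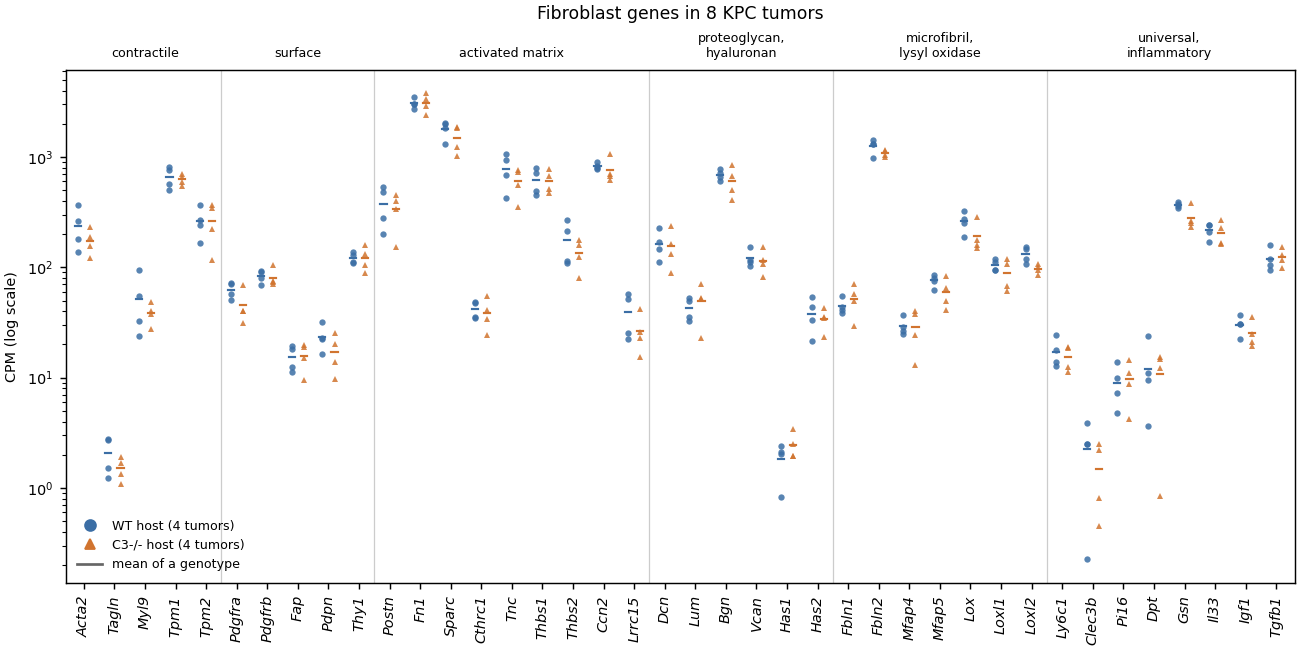
CPM of the 40 fibroblast genes (log scale) in each of the 4 WT (blue circles) and 4 C3-/- tumors (orange triangles), with a bar at the mean of each genotype, grouped by role. Within every gene the points of both genotypes share part of their range.

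The contractile genes encode the actin machinery of myofibroblasts and are known targets of serum response factor (SRF), which binds a DNA element called the CArG box. Of the 40 genes, 23 had an entry in a RefSeq promoter table (GRCm38.p6, placed in mm39 by exact match), with 30 promoters among them. The 250 bases before each start were searched for a CArG box, taken as CC, then 6 bases of A or T with at most 1 G or C among them, then GG, a pattern that reads the same way on both strands. It was found in 4 of the 30 promoters, those of Acta2, Myl9, Fbln2 and 1 promoter of Gsn, or 13.3%, against 8.59% of the 32851 promoters that remained. With no G or C allowed, only the Myl9 promoter held one (3.33%, against 1.47% of all). The boxes of Acta2 and Myl9, a pair of genes that were both highest in WT tumor 3, are shown with those of Fbln2 and Gsn for comparison, each as 30 bases on the strand of the gene with the box in capitals.
Acta2 box A: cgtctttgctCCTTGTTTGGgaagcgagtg
Acta2 box B: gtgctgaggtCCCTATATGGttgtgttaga
Myl9 box A: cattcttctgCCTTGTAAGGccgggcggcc
Myl9 box B: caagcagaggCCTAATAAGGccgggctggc
Fbln2 box: ctcctgggctCCTATTTGGGcttgttgagc
Gsn box: gactcagtttCCTTCTATGGaccgcagaga
In mm39 the Acta2 stretches are at chr19:34232788-34232817 and chr19:34232838-34232867 on the minus strand, and their boxes begin 34 and 84 bases before the RefSeq start. Those of Myl9 are at chr2:156617275-156617304 and chr2:156617213-156617242 on the plus strand, 99 and 161 bases before it. The Fbln2 stretch is at chr6:91189665-91189694 and that of Gsn at chr2:35146199-35146228, both on the plus strand, 71 and 162 bases before the start. In GENCODE vM39 longer transcripts of the same 4 genes begin upstream, and all 6 stretches fall in an annotated untranslated exon. These matches describe the letters of the windows and no binding was measured.

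Acta2 (in the deposited table on chromosome 19 of mm39, from 34218490 to 34232990) encodes α-smooth muscle actin, the usual marker of myofibroblasts. WT tumors held 139, 179, 370.4 and 264 CPM of Acta2, and C3-/- tumors 187, 156, 122 and 229.7 CPM. WT tumor 3 stood highest, WT tumors 1 and 2 lay within the range of the C3-/- tumors, and the groups overlapped. Acta2 had a log2 fold change of -0.45 (SE 0.30, edgeR unadjusted p = 0.158). The interval (95% confidence) of that value was -1.12 to 0.21. Without WT tumor 3 the log2 fold change of Acta2 was -0.16, without C3-/- tumor 4 it was -0.62, and without WT tumor 1 it was -0.64 (edgeR unadjusted p = 0.0442). Myl9, a myosin light chain, was likewise highest in WT tumor 3, at 95.5 CPM, with 24.0 to 95.5 CPM in WT and 27.5 to 48.8 CPM in C3-/- tumors (log2 fold change -0.43, SE 0.38, edgeR unadjusted p = 0.283). Without WT tumor 3 its log2 fold change was 0.04. The smooth muscle genes Actg2 and Cnn1 were also highest in that tumor, at 34.1 and 14.7 CPM, where Actg2 lay between 5.60 and 15.8 CPM and Cnn1 between 1.93 and 12.1 CPM in the other 7 tumors. They are 2 of 5 smooth muscle markers examined, named after their values were seen, and the list as a whole was not highest there. Its summed level was 104 CPM in WT tumor 3, the third lowest of 8, against 673 CPM in WT tumor 4 and 621 CPM in C3-/- tumor 4, and the mean of its centered log2 values was 0.28, 0.41 and 0.89 in those 3 tumors. The list includes the desmin gene Des. Its lowest sums (52.6, 67.7 and 104 CPM) fell in C3-/- tumor 2, WT tumor 2 and WT tumor 3. Those were also the tumors with the skeletal muscle actin gene Acta1 below 1 CPM. What part smooth muscle or skeletal muscle cells had in these levels was not tested.

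Tpm1, a tropomyosin that winds along actin filaments, had the highest mean FPKM of the contractile genes (98.6). The levels of Tpm1 were 567, 505, 769 and 819.6 CPM in WT and 661, 549, 591 and 707 CPM in C3-/- tumors. Between genotypes Tpm1 had a fitted log2 fold change of -0.09 (SE 0.18), with an edgeR unadjusted p of 0.642. Its 95% confidence interval ran from -0.48 to 0.31. Tpm2 is another tropomyosin, found in muscle as well as in fibroblasts, and it had 165 to 371 CPM in WT and 116 to 365 CPM in C3-/- tumors. edgeR gave Tpm2 a log2 fold change of 0.0038 (SE 0.35) and an unadjusted p of 0.991.

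Tagln encodes transgelin, an actin cross-linker that myofibroblasts usually carry beside α-smooth muscle actin. For Tagln, the WT tumors had 1.24, 1.51, 2.71 and 2.81 CPM and the C3-/- tumors 1.92, 1.34, 1.702 and 1.09 CPM. Those levels were far below those of the other contractile genes on the FPKM scale, 0.892 for Tagln against 92.7 for Acta2. Of the exon bases of Tagln in GENCODE vM39, 66.7% also lie in exons of other genes on the opposite strand (Pcsk7 and Gm48529), and the sources used here do not say how the counting treated strand. Tnnc2, a skeletal muscle gene with a like overlap (68.7%, Ube2c), was at 0 counts in 6 of 8 tumors, while Acta1, another muscle gene, reached 1499.8 CPM. The part of this overlap in the counts was not tested, and the value of Tagln is uncertain (log2 fold change -0.45, SE 0.36, edgeR unadjusted p = 0.237). Of the 5 contractile genes, 4 were fitted lower, 0 of 5 at an unadjusted p below 0.05, with a median of -0.43, or -0.0082 without WT tumor 3 and -0.26 without WT tumor 4. With all 8 tumors that median was -0.25 in limma-voom, -0.23 with the replicate block, and -0.26 and -0.20 on FPKM with pseudocounts of 0.1 and 1.

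Pdgfra and Pdgfrb encode the receptors for platelet-derived growth factor that mark fibroblasts, the first (in the deposited table on chromosome 5 of mm39, from 75312953 to 75358876) enriched in inflammatory fibroblasts and the second shared with pericytes. Pdgfra measured 57.8, 70.4, 50.2 and 72.2 CPM in the WT group and 40.1, 31.4, 40.4 and 69.2 CPM in the C3-/- group. WT tumors lay between 50.2 and 72.2 CPM, and 3 of 4 C3-/- tumors were below all of them, with C3-/- tumor 4 among the WT values. For Pdgfra the fit gave a log2 fold change of -0.47 (SE 0.23, edgeR unadjusted p = 0.0725). Without C3-/- tumor 4 the log2 fold change of Pdgfra was -0.75 (edgeR unadjusted p = 0.0022). Its unadjusted p was also below 0.05 with the replicate block (0.031), in limma-voom (0.047), with no filter (0.048) and without WT tumor 3 (0.046). It was above 0.05 in DESeq2 (0.0514) and in the other edgeR fits that left out 1 tumor (0.0881 to 0.181). Without C3-/- tumor 2 the log2 fold change of Pdgfra was -0.33. In WT tumors Pdgfrb was at 79.3, 69.2, 91.1 and 92.3 CPM, and in C3-/- tumors at 74.5, 70.7, 73.8 and 104 CPM. C3-/- tumor 4 was the highest of all 8, and the rest of the C3-/- tumors fell inside the WT range. Pdgfrb had a log2 fold change of -0.04 (SE 0.16, edgeR unadjusted p = 0.803). The interval (95% confidence) of that value was -0.39 to 0.31. The 4 PDGF ligand genes were all fitted higher in C3-/- tumors, none of them at an unadjusted p below 0.05, with a median log2 fold change of 0.07.

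Among the other surface genes, Thy1 (CD90) had the highest mean FPKM (40.3). Thy1 had 110.0, 130.1, 137 and 112 CPM in WT tumors and 159, 88.8, 106 and 132 CPM in C3-/- tumors. Between genotypes Thy1 had a fitted log2 fold change of -0.01 (SE 0.18), with an edgeR unadjusted p of 0.948. Its 95% confidence interval ran from -0.41 to 0.38. The protease gene Fap had 11.2 to 19.4 CPM in WT and 9.52 to 19.8 CPM in C3-/- tumors (log2 fold change 0.04, SE 0.26, edgeR unadjusted p = 0.885). Podoplanin, encoded by Pdpn and shared with lymphatic vessels, had 16.4 to 31.9 CPM in WT and 9.75 to 25.3 CPM in C3-/- tumors (log2 fold change -0.44, SE 0.30, edgeR unadjusted p = 0.166). The log2 fold change of Pdpn was -0.69 without C3-/- tumor 4 (edgeR unadjusted p = 0.0403). It was -0.25 without C3-/- tumor 2 and -0.26 without WT tumor 3 (edgeR unadjusted p = 0.373 and 0.415). Over the 5 surface genes the median log2 fold change was -0.04, and 0 of 5 had an unadjusted p below 0.05. With 1 tumor left out that median ran from -0.19 without C3-/- tumor 4 to 0.019 without C3-/- tumor 2, and it was -0.17 without C3-/- tumor 1, -0.12 without WT tumor 2 and -0.062 without WT tumor 1.

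Matrix genes of activated fibroblasts held the most abundant transcripts of the 40. Sparc, a collagen-binding matricellular protein, had the highest mean FPKM of all. WT tumors held 1303, 1995, 2033 and 1832 CPM of Sparc, and C3-/- tumors 1883, 1018, 1232 and 1819 CPM. Levels were lowest in C3-/- tumors 2 and 3 and WT tumor 1, and the groups overlapped. edgeR gave Sparc a log2 fold change of -0.27 (SE 0.23) and an unadjusted p of 0.273. Fibronectin (Fn1), to which cells attach through integrins, had 2743 to 3506 CPM in WT and 2388 to 3781 CPM in C3-/- tumors (log2 fold change 0.01, SE 0.18, edgeR unadjusted p = 0.941). The interval (95% confidence) of that value was -0.38 to 0.40. Ccn2 (connective tissue growth factor), a target of the YAP and TGF-β pathways, was the only one of the 40 with its highest value in C3-/- tumor 2, at 1057 CPM, where the other 7 tumors had between 623 and 896 CPM (log2 fold change -0.11, SE 0.18, edgeR unadjusted p = 0.567). The log2 fold change of Ccn2 was -0.30 without C3-/- tumor 2 (edgeR unadjusted p = 0.055) and -0.02 without C3-/- tumor 4. Of its exon bases, 36.5% overlap Gm15270 on the opposite strand.

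Lrrc15 encodes a membrane protein of TGF-β-driven myofibroblasts and had the second most negative fitted value of the 40. The levels of Lrrc15 were 56.8, 25.2, 22.6 and 51.3 CPM in WT and 23.0, 15.3, 41.6 and 26.0 CPM in C3-/- tumors. Both genotypes held tumors over 40 CPM and tumors under 26 CPM. For Lrrc15 the fit gave a log2 fold change of -0.56 (SE 0.36, edgeR unadjusted p = 0.151). Without C3-/- tumor 3 that value was -0.87 (edgeR unadjusted p = 0.0358), and without WT tumor 1 it was -0.32 (edgeR unadjusted p = 0.405). Tenascin C (Tnc), a matrix protein of wounds and tumors, had 428 to 1064 CPM in WT and 349 to 763 CPM in C3-/- tumors (log2 fold change -0.37, SE 0.31, edgeR unadjusted p = 0.253). Thrombospondin 1 (Thbs1), an activator of latent TGF-β, had 450.0 to 792 CPM and 471 to 785 CPM in the same order (log2 fold change -0.01, SE 0.23, edgeR unadjusted p = 0.964), and Cthrc1, a secreted protein of activated fibroblasts, had 34.7 to 48.2 CPM and 24.2 to 55.4 CPM (log2 fold change -0.10, SE 0.24, edgeR unadjusted p = 0.691). Periostin (Postn) and thrombospondin 2 (Thbs2) are described further on with the tumors in which they were low. In all, 8 of the 9 activated matrix genes were fitted lower, 0 of 9 at an unadjusted p below 0.05, with a median of -0.15, or -0.32 without C3-/- tumor 1 and -0.32 without C3-/- tumor 4.

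Biglycan (Bgn), a small proteoglycan that binds collagen, had the highest mean FPKM of its group. For Bgn, the WT tumors had 607, 784, 722 and 660.0 CPM and the C3-/- tumors 676, 411, 507 and 852 CPM. Bgn had a log2 fold change of -0.18 (SE 0.22, edgeR unadjusted p = 0.423). Decorin (Dcn) and lumican (Lum), its relatives, both space collagen fibrils. Dcn had 111 to 228 CPM in WT and 89.3 to 235 CPM in C3-/- tumors (log2 fold change -0.09, SE 0.29, edgeR unadjusted p = 0.772), and Lum was among the few genes fitted higher. Lum measured 35.5, 49.2, 32.9 and 52.5 CPM in the WT group and 52.2, 22.8, 51.4 and 70.3 CPM in the C3-/- group. Between genotypes Lum had a fitted log2 fold change of 0.21 (SE 0.30), with an edgeR unadjusted p of 0.501. Without C3-/- tumor 4 this value was -0.01. Versican (Vcan), a large hyaluronan-binding proteoglycan, had 103 to 153 CPM in WT and 80.95 to 154 CPM in C3-/- tumors (log2 fold change -0.08, SE 0.20, edgeR unadjusted p = 0.687). Of the 6 proteoglycan and hyaluronan genes, 4 were fitted lower, 0 of 6 at an unadjusted p below 0.05. Their median was -0.08, it ran from -0.27 without C3-/- tumor 4 to 0.08 without WT tumor 4, and it also turned above 0 without C3-/- tumor 1 (0.025) or C3-/- tumor 2 (0.037).

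The hyaluronan synthases Has1 and Has2 make the gel-like polysaccharide for which pancreatic tumors are known. In WT tumors Has1 was at 2.11, 0.8289, 2.41 and 2.04 CPM, and in C3-/- tumors at 2.48, 1.96, 1.95 and 3.45 CPM. WT tumor 2 stood below the rest, and all 8 values were low. edgeR gave Has1 a log2 fold change of 0.41 (SE 0.36) and an unadjusted p of 0.290. Has2, at 8.43 FPKM the more abundant of the pair on that scale, had 21.3 to 53.6 CPM in WT and 23.2 to 43.0 CPM in C3-/- tumors (log2 fold change -0.15, SE 0.28, edgeR unadjusted p = 0.596). The 13 other proteoglycan and hyaluronan genes examined beside them (11 tested) had 10 of 11 fitted higher in C3-/- tumors and a median of 0.15. Only 1 of the 11, Prelp, a small proteoglycan of basement membranes, was higher at an unadjusted p below 0.05, against 3.03% of all genes. Prelp had 16.0, 20.3, 12.2 and 14.98 CPM in WT tumors and 24.8, 21.8, 24.5 and 33.6 CPM in C3-/- tumors. Every C3-/- tumor was above every WT tumor, which held for 2.28% of all genes tested. No gene tested had an adjusted p below 0.05 in edgeR. For Prelp the fit gave a log2 fold change of 0.72 (SE 0.19, edgeR unadjusted p = 0.00400).

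Lysyl oxidases cross-link collagen and elastin, and among the 40 genes Loxl2, in the deposited table on chromosome 14 of mm39 from 69846517 to 69933283, ranked first by p. WT tumors held 107, 154, 119 and 147 CPM of Loxl2, and C3-/- tumors 85.4, 101, 94.4 and 108 CPM. The groups met at their edges, with the highest C3-/- tumor (4, 108 CPM) just above the lowest WT tumor (1, 107 CPM). Loxl2 had a log2 fold change of -0.44 (SE 0.14, edgeR unadjusted p = 0.0118). Dropping any 1 tumor kept the log2 fold change of Loxl2 between -0.52 and -0.36, with an unadjusted p of 0.0386 or less in edgeR. Of the exon bases of Loxl2, 22.7% overlap other genes, most of them on the opposite strand. Lox itself had 189 to 326 CPM in WT and 150.2 to 287 CPM in C3-/- tumors (log2 fold change -0.43, SE 0.23, edgeR unadjusted p = 0.0931). The unadjusted p of Lox in edgeR was below 0.05 with the replicate block (0.0281), without WT tumor 1 (0.0412) and without C3-/- tumor 4 (0.0055), where the log2 fold change was -0.68. That p was 0.114 to 0.243 in the other edgeR fits that left out 1 tumor. Loxl1 had 93.8 to 118 CPM and 61.1 to 119 CPM (log2 fold change -0.24, SE 0.21, edgeR unadjusted p = 0.285).

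Fibulin 2 (Fbln2) had the highest mean FPKM among microfibril and cross-linking genes. The levels of Fbln2 were 976, 1415, 1306 and 1314 CPM in WT and 1159, 1003, 1044 and 1128 CPM in C3-/- tumors. Between genotypes Fbln2 had a fitted log2 fold change of -0.21 (SE 0.15), with an edgeR unadjusted p of 0.191. Fibulin 1 (Fbln1), a relative in the same elastic matrix, was fitted higher. For Fbln1, the WT tumors had 54.6, 43.6, 38.5 and 40.6 CPM and the C3-/- tumors 70.9, 29.7, 49.8 and 57.3 CPM. edgeR gave Fbln1 a log2 fold change of 0.23 (SE 0.24) and an unadjusted p of 0.358. It was 0.42 without C3-/- tumor 2 (edgeR unadjusted p = 0.0384) and 0.04 without C3-/- tumor 1 (edgeR unadjusted p = 0.861). The microfibril-associated genes Mfap4 and Mfap5 had 24.7 to 37.0 CPM and 62.4 to 85.9 CPM in WT tumors, and 13.0 to 39.9 CPM and 41.1 to 83.7 CPM in C3-/- tumors. Their log2 fold changes were -0.03 (SE 0.31) and -0.35 (SE 0.21). That of Mfap5 was -0.56 without C3-/- tumor 1 (edgeR unadjusted p = 0.0096) and -0.21 without C3-/- tumor 2 (edgeR unadjusted p = 0.307). Of the 7 genes of this group, 6 were fitted lower, with a median of -0.24 (-0.38 without C3-/- tumor 1) and Loxl2 alone at an unadjusted p below 0.05. Over 15 other elastic fiber and cross-linking genes, 9 were fitted lower and 6 higher (median -0.06). Only 1 of the 15 was higher at an unadjusted p below 0.05 (against 3.03% of all genes), Tgm2, the transglutaminase that cross-links matrix proteins through glutamine. Tgm2 measured 238, 259.8, 183 and 196 CPM in the WT group and 328, 325, 286 and 265 CPM in the C3-/- group. For Tgm2 the fit gave a log2 fold change of 0.46 (SE 0.15, edgeR unadjusted p = 0.0106). Here the C3-/- tumors were all above the WT tumors, as for 2.28% of all genes tested.

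Gsn encodes gelsolin, which severs actin filaments and is abundant in universal and inflammatory fibroblasts. The deposited table places it on chromosome 2 of mm39, from 35146392 to 35197904, and the stretch with its CArG box lies before that start, in the longer GENCODE vM39 transcripts. In WT tumors Gsn was at 346, 378, 393 and 357 CPM, and in C3-/- tumors at 380.4, 264, 232 and 254 CPM. WT tumors lay close together, C3-/- tumor 1 was among them, and the other 3 C3-/- tumors were below all WT tumors. Gsn had a log2 fold change of -0.38 (SE 0.16, edgeR unadjusted p = 0.0405). The unadjusted p in edgeR was above 0.05 in 7 of 8 fits that left out 1 tumor (0.0543 to 0.112) and with the replicate block (0.0506), and it was 0.00052 without C3-/- tumor 1. Clec3b (tetranectin) is a secreted plasminogen-binding protein and had the most negative fitted value. Clec3b had 2.49, 2.49, 0.226 and 3.87 CPM in WT tumors and 2.20, 0.448, 0.819 and 2.52 CPM in C3-/- tumors. WT tumor 3 and C3-/- tumor 2 were each under 0.5 CPM, so that both genotypes held a tumor near the bottom of the range. Between genotypes Clec3b had a fitted log2 fold change of -0.61 (SE 0.70), with an edgeR unadjusted p of 0.407.

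Il33, an alarmin, had 170.4 to 242 CPM in WT and 163 to 267 CPM in C3-/- tumors (log2 fold change -0.06, SE 0.19, edgeR unadjusted p = 0.736). Igf1, a growth factor, had 22.5 to 36.8 CPM and 19.2 to 35.2 CPM in the same order (log2 fold change -0.26, SE 0.22, edgeR unadjusted p = 0.264), and its log2 fold change was -0.46 without C3-/- tumor 4 (edgeR unadjusted p = 0.0412). Ly6c1, also carried by endothelial cells and sharing sequence with its close relative Ly6c2, had 12.8 to 24.1 CPM and 11.3 to 19.1 CPM (log2 fold change -0.16, SE 0.25, edgeR unadjusted p = 0.527). Tgfb1, the ligand that drives myofibroblasts and is made by many cell types, had 95.03 to 159.9 CPM in WT and 98.2 to 154 CPM in C3-/- tumors (log2 fold change 0.05, SE 0.19, edgeR unadjusted p = 0.778). Of the 8 universal, inflammatory and growth factor genes, 6 were fitted lower, Gsn alone at an unadjusted p below 0.05, with a median of -0.16. That median ran from -0.30 without C3-/- tumor 4 to -0.0084 without WT tumor 4, and it was -0.0088 without C3-/- tumor 2, -0.27 without C3-/- tumor 1 and -0.25 without WT tumor 3.

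Of 24 other genes of the TGF-β pathway reported here, 13 were fitted lower and 11 higher, with a median of -0.02. At an unadjusted p below 0.05, edgeR gave 0 of the 24 lower (against 2.07% of all genes) and 1 higher (against 3.03%), the ligand gene Tgfb3. WT tumors held 114, 113, 128 and 99.3 CPM of Tgfb3, and C3-/- tumors 153, 133, 127 and 137 CPM. C3-/- tumor 3 lay just below WT tumor 3, and the other 3 C3-/- tumors were above all WT tumors. edgeR gave Tgfb3 a log2 fold change of 0.28 (SE 0.12) and an unadjusted p of 0.0391. Of 22 cytokine and chemokine genes of inflammatory fibroblasts and their receptors, 10 were fitted lower and 12 higher (median 0.07). Only 1 of the 22 was higher at an unadjusted p below 0.05 (against 3.03% of all genes), Lif, a cytokine of the IL-6 family. The levels of Lif were 19.3, 33.5, 21.3 and 25.1 CPM in WT and 30.2, 44.9, 33.8 and 36.8 CPM in C3-/- tumors. C3-/- tumors 2, 3 and 4 were above all WT tumors, with C3-/- tumor 1 just below WT tumor 2. For Lif the fit gave a log2 fold change of 0.55 (SE 0.20, edgeR unadjusted p = 0.0179). Of 16 genes of SRF and the actin cytoskeleton (15 tested), 12 were fitted lower and 3 higher (median -0.11), none at an unadjusted p below 0.05.

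Tumors of 1 genotype differed widely from each other in the 40 genes. The mean of centered log2 values over the 40 genes was -0.020, -0.0049, 0.023 and 0.38 in WT tumors 1 to 4 and 0.083, -0.57, -0.15 and 0.27 in C3-/- tumors 1 to 4. C3-/- tumor 2 was thus the lowest and WT tumor 4 the highest, and C3-/- tumor 4, of the same genotype as the lowest, came second. C3-/- tumor 2 had the lowest CPM of all 8 tumors for 21 of the 40 genes (52.5%), against 15.6% of all genes tested, and the lowest mean in each of the 6 role groups, from -0.92 for universal and inflammatory genes to -0.39 for contractile genes. In the same tumor the summed CPM of Col1a1, Col1a2 and Col3a1 was lowest, at 4154, where the other 7 tumors had between 6132 and 10743. It was also lowest in summed levels of 8 endothelial markers (222 CPM, against 251 to 372) and 6 leukocyte markers (165 CPM, against 205 to 344), while its 8 epithelial markers lay at 7478 CPM within the range of the others (5848 to 11054) and its 7 pericyte markers at 195 CPM were the third highest of 8 (176 to 254). The part of tissue composition in these levels was not tested.

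**Figure D3:**
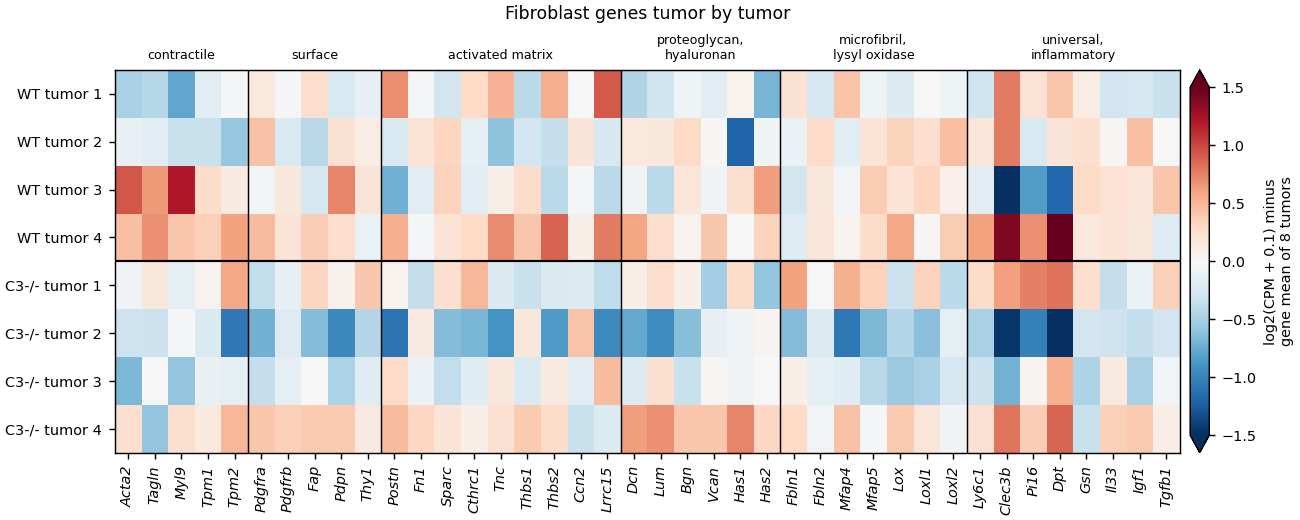
Level of the 40 fibroblast genes in each tumor, as log2(CPM + 0.1) minus the gene's mean over the 8 tumors (color), with genes by role from left to right and tumors from top to bottom. C3-/- tumor 2 is blue for most genes and WT tumor 4 and C3-/- tumor 4 are red for most, and deep colors occur in tumors of both genotypes.

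Skeletal muscle RNA also differed between tumors. The muscle actin gene Acta1 was below 1 CPM in WT tumors 2 and 3 and C3-/- tumor 2 (0.527, 0.0753 and 0.392 CPM) and between 636 and 1499.8 CPM in the other 5 tumors. Exactly those 3 tumors held the 3 lowest values of Fap, Postn, Thbs2, Pi16 and Dpt, 5 of the 40 genes (12.5%), against 2.52% of all genes tested. The split by Acta1 was seen in the data and is not a group of the study, and the split itself was not tested.

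Postn encodes periostin, a matricellular protein of activated fibroblasts. For Postn, the WT tumors had 535, 282, 199 and 477 CPM and the C3-/- tumors 340.3, 153, 402 and 456 CPM. Postn had a log2 fold change of -0.15 (SE 0.37, edgeR unadjusted p = 0.702). Thbs2, a relative of thrombospondin 1, had the same 3 tumors lowest. Thbs2 measured 213, 113, 110.2 and 268 CPM in the WT group and 125, 80.5, 159 and 177 CPM in the C3-/- group. Between genotypes Thbs2 had a fitted log2 fold change of -0.38 (SE 0.32), with an edgeR unadjusted p of 0.267. Dpt (dermatopontin) and Pi16 mark universal fibroblasts of connective tissue. In WT tumors Dpt was at 11.1, 9.49, 3.62 and 23.7 CPM, and in C3-/- tumors at 14.7, 0.840, 12.2 and 15.3 CPM. edgeR gave Dpt a log2 fold change of -0.16 (SE 0.72) and an unadjusted p of 0.823. C3-/- tumor 2 was far below the others. Pi16 had 9.95, 7.31, 4.75 and 13.8 CPM in WT tumors and 14.5, 4.201, 8.83 and 11.1 CPM in C3-/- tumors. For Pi16 the fit gave a log2 fold change of 0.11 (SE 0.40, edgeR unadjusted p = 0.797). What part fibroblasts of adjoining muscle had in these levels was not tested.

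**Figure D4:**
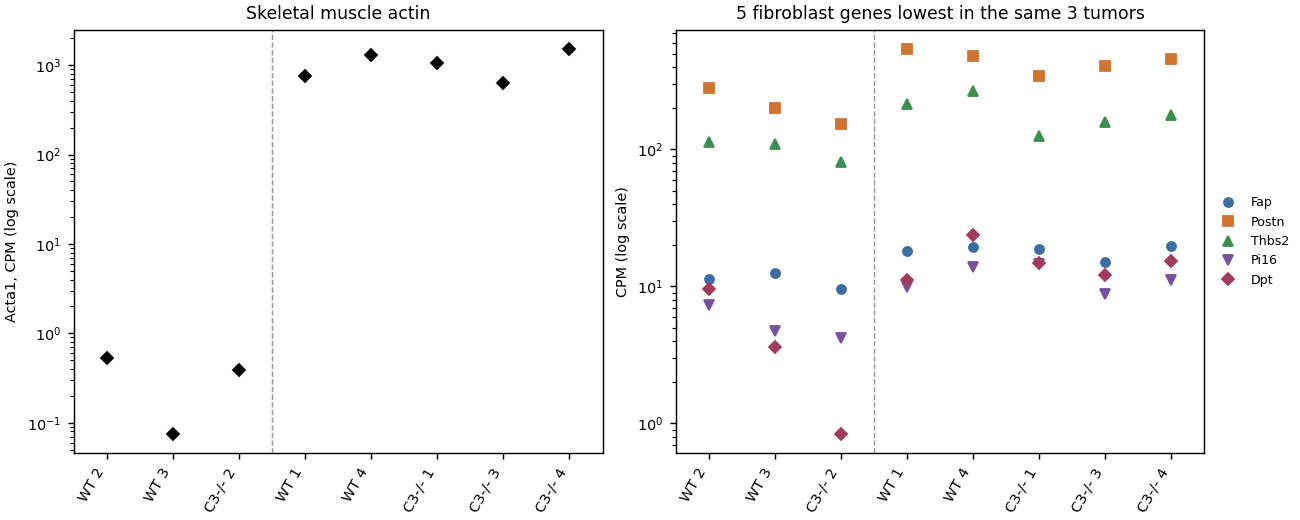
CPM (log scale) of the skeletal muscle actin gene Acta1 (left) and of Fap, Postn, Thbs2, Pi16 and Dpt (right) in each tumor, with the 3 tumors with Acta1 below 1 CPM to the left of the dashed line. All 5 fibroblast genes are lower in each of these 3 tumors than in each of the other 5.

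The muscle-poor tumors were 2 of 4 WT and 1 of 4 C3-/- tumors. In a comparison added after the data were seen, restricted to the 5 tumors with Acta1 above 1 CPM, 26 of the 40 genes were fitted lower in C3-/- tumors with a median of -0.07, and 0 had an adjusted p below 0.05.

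Pericytes, mesothelial cells and antigen-presenting cells share some genes with fibroblasts. Pericyte markers (7 genes) had summed levels of 176 to 210 CPM in WT and 179 to 254 CPM in C3-/- tumors, with a median log2 fold change of -0.00048 and 0 of 7 at an unadjusted p below 0.05. Of 6 mesothelial markers, 5 were fitted lower, and Upk3b, Lrrn4 and Upk1b were lower at an unadjusted p below 0.05, against 2.07% of all genes. Their log2 fold changes were -1.43 (SE 0.36), -1.30 (SE 0.37) and -0.91 (SE 0.37), and each had under 6 CPM in every tumor. The summed level of the list, 490 to 577 CPM in WT and 369 to 556 CPM in C3-/- tumors, was mostly Msln, which pancreatic cancer cells also carry. The 4 MHC class II genes that antigen-presenting fibroblasts share with leukocytes were all fitted higher, with a median log2 fold change of 1.01. At an unadjusted p below 0.05, 3 of them were higher, against 3.03% of all genes, and WT and C3-/- values overlapped for all 4. The summed level of these genes was 99.0 to 269 CPM in WT and 126 to 502 CPM in C3-/- tumors. Which cells carried these transcripts was not tested.

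Lists of markers of cell types and tissues were also summed in each tumor, without an estimate of composition. The fibroblast markers Pdgfra, Pdgfrb and Acta2 were at 31.4 CPM or more in all 8 tumors. Pdgfrb is shared with pericytes, and the cells that carried these 3 transcripts were not identified. Fibrillar collagens were all 3 fitted lower (median -0.20), as were all 8 epithelial markers (median -0.18) and 6 of 8 endothelial markers (median -0.07), none at an unadjusted p below 0.05. Of 6 leukocyte markers, 4 were fitted higher (median 0.35), with 2 higher and 1 lower at an unadjusted p below 0.05 (against 3.03% and 2.07% of all genes). Smooth muscle markers summed to between 52.6 and 673 CPM (3 of 5 fitted lower, median -0.15), and skeletal muscle markers to between 14.8 and 4164 CPM (8 of 10 tested fitted higher, median 0.20). Acinar markers reached 1691 CPM in C3-/- tumor 1, where WT tumors had 167 to 505 CPM (7 of 8 fitted higher, median 0.80). The other C3-/- tumors, at 39.1 to 66.6 CPM, were below all WT tumors. Adipocyte markers reached 547 CPM in WT tumor 2 (4 of 4 tested fitted lower, median -1.19). The other WT tumors had 73.9 to 126 CPM, within the 53.7 to 139 CPM of the C3-/- tumors. Hepatocyte markers reached 71.1 CPM in WT tumor 4, with 11.2 to 25.3 CPM elsewhere (4 of 4 tested fitted lower, median -2.28). Of these, 2 were lower at an unadjusted p below 0.05, against 2.07% of all genes. Schwann cell markers lay between 24.0 and 34.6 CPM (2 of 4 tested fitted lower, median -0.0098). Whether these tissues contributed to the levels of the 40 genes was not tested.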

How the data were processed

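RNA of 8 KPC tumors (4 WT, 4 C3-/-) was examined. The authors selected poly-A RNA, aligned read pairs to mm39 and deposited raw counts per gene, FPKM values, a signal in which each count is divided by the size factor of its tumor, and their own fold changes and p-values from DESeq2, which were not used. The paper's methods name STAR and HTSeq, the submitters' processing notes name HISAT2 2.0.5 and DESeq2 1.20.0, and the strand setting of the counting is not given in the sources used here. Totals were 13.3 M to 23.4 M counts per tumor. Counts are read pairs and not molecules. The deposited counts were fitted with edgeR 4.0.16 in R 4.3.3 (genes kept by filterByExpr at a minimum count of 10, scaling by TMM, quasi-likelihood test, Benjamini-Hochberg adjustment over all 16610 genes tested), and the fits were tested on simulated data. FPKM deposited by the authors served for levels between genes. Alternatives were DESeq2 1.42.0 and its size factors in edgeR, limma-voom (limma 3.58.1), limma on log2(FPKM + 0.1) and log2(FPKM + 1), other filters, robust fitting, a replicate block and fits without 1 tumor at a time. The 40 genes, the 6 role groups, the 6 pathway lists (94 genes) and the 14 marker lists were chosen with earlier results of these data known. All 40 genes are named. Values in every tumor are given for Pdgfra, Pdgfrb, Acta2, members with an unadjusted p below 0.05, the member with the highest FPKM of each role group and the 3 largest changes each way. They are also given for genes chosen after their values were seen, Tagln and, except for Fap, the genes low in the tumors without muscle RNA. Of the pathway lists, genes with an unadjusted p below 0.05 are named, and 1 gene is not reported here. Exon overlaps come from GENCODE vM39, and promoters from a RefSeq table of GRCm38.p6 without chr18, placed in mm39 by exact match.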

Additional observations from a re-analysis of the deposited data

Results flagged for a closer look

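In each group of 4 tumors, the gap between an extreme tumor and its nearest neighbor was set against the whole range of the group on the log2(CPM + 0.1) scale, by Dixon's test at its 95% critical value. Of 102 groups examined (51 genes in both genotypes), 3 held a tumor that stood apart, where chance gives about 1 in 20 groups, or 5.1 of 102. The platelet-derived growth factor receptor gene Pdgfrb was at 103.95 CPM in C3-/- tumor 4 and between 70.7 and 74.5 CPM in the other 3 C3-/- tumors. Has1 was at 0.8289 CPM in WT tumor 2 and between 2.04 and 2.41 CPM in the other 3 WT tumors. Dpt was at 0.840 CPM in C3-/- tumor 2, the tumor in which 21 of the 40 fibroblast genes were lowest, and between 12.2 and 15.3 CPM in the other 3 C3-/- tumors.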

How the results depend on the processing

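No alternative gave any of the 40 genes an adjusted p below 0.05, under the settings of the methods and with each tumor left out. The filter of 10 counts in every tumor removed Clec3b. With all 8 tumors, 31 to 34 genes were fitted lower and 2 or 3 had an unadjusted p below 0.05, against 3.97% to 5.36% of all genes. With 1 tumor left out, 25 to 36 were fitted lower, the median ran from -0.30 to -0.053, and 1 to 5 genes had an unadjusted p below 0.05 (1 without WT tumor 2 or WT tumor 4, against 5.27% and 3.95% of all genes, and 5 without C3-/- tumor 4, against 3.95%). In fits chosen after seeing the data, that count was 4 in the 5 tumors with muscle RNA (against 4.13%). It was 5 (against 1.83%, median -0.62) in the 3 without, but there 1 C3-/- tumor, the lowest of all 8 for 21 genes, stood against 2 WT tumors with 1 residual degree of freedom, so those values do not compare genotypes. Loxl2 did not overlap between genotypes with DESeq2's size factors or the authors' FPKM (1 of 40 genes, against 3.63% of all genes). With a tumor left out 0 to 3 genes did not, where 3 against 4 tumors give 4.64% to 14% of all genes, and the 3 came without C3-/- tumor 4 (against 5.8%). The log2 fold change of C3 was -1.42 in DESeq2, past an adjusted p of 0.05, and -1.55 to -1.19 in edgeR with a tumor left out.

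Tumors with the same replicate number showed no consistent pairing, with residual correlations of 0.49 and 0.59 for numbers 2 and 4 and -0.030 and -0.36 for numbers 1 and 3. With the replicate block, 0 of the 40 genes had an adjusted p below 0.05, 3 an unadjusted p below 0.05 (against 4.11% of all genes), and 33 were fitted lower (median -0.16).

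The sign turned for 20 of 40 genes in at least 1 of 17 alternatives, 4 of them outside the tumors left out, and the largest of these 20 values was 0.43 in size with all 8 tumors. Tpm2 was -0.0022 with DESeq2's size factors in edgeR, -0.0011 in DESeq2, -0.068 in limma-voom, -0.074 with the replicate block, and -0.078 and -0.076 on FPKM with pseudocounts of 0.1 and 1. Fn1 was -0.00074 in limma-voom, -0.0020 with the block, and -0.0076 and -0.0076 on FPKM. In limma-voom Fap was -0.0037 and Thbs1 0.0068, and with the block Thbs1 was 0.0013. Ranges with a tumor left out crossed 0 for Cthrc1 (-0.32 to 0.074), Dcn (-0.36 to 0.11), Dpt (-0.46 to 0.41), Fap (-0.089 to 0.22), Fn1 (-0.098 to 0.12), Has2 (-0.35 to 0.060), Il33 (-0.21 to 0.033), Lum (-0.014 to 0.45), Ly6c1 (-0.29 to 0.045), Mfap4 (-0.23 to 0.21), Myl9 (-0.66 to 0.045), Pdgfrb (-0.19 to 0.019), Pi16 (-0.16 to 0.40), Postn (-0.35 to 0.097), Tgfb1 (-0.065 to 0.22), Thbs1 (-0.16 to 0.14), Thy1 (-0.17 to 0.11), Tpm1 (-0.20 to 0.029), Tpm2 (-0.20 to 0.25) and Vcan (-0.26 to 0.052). For the other 20 genes they stayed on 1 side of 0: Acta2 (-0.64 to -0.16), Bgn (-0.38 to -0.03), Ccn2 (-0.30 to -0.019), Clec3b (-0.97 to -0.21), Fbln1 (0.04 to 0.42), Fbln2 (-0.31 to -0.15), Gsn (-0.56 to -0.31), Has1 (0.17 to 0.55), Igf1 (-0.46 to -0.15), Lox (-0.68 to -0.30), Loxl1 (-0.42 to -0.099), Loxl2 (-0.52 to -0.36), Lrrc15 (-0.87 to -0.32), Mfap5 (-0.56 to -0.21), Pdgfra (-0.75 to -0.33), Pdpn (-0.69 to -0.25), Sparc (-0.40 to -0.12), Tagln (-0.63 to -0.26), Thbs2 (-0.55 to -0.10) and Tnc (-0.58 to -0.18). The cause was not tested. The median within-genotype SD was 0.40 on the log2 scale for the 40 genes, against 0.31 for all genes tested, and 5 genes (Tagln, Has1, Clec3b, Pi16 and Dpt) had 100 counts or fewer in at least 1 tumor.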
